A study of Mus musculus with 40 samples.

Results

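The difference in RNA between mouse oocytes lacking both G9a and Glp and oocytes lacking G9a alone was described across 9509 transcript loci, of 38540 in the deposited table. Loci were included where the mean log2 of the reads per 1000000 reads of the library (RPM) over all 11 RNA libraries was at least 3. Of these, 7188 overlapped an annotated gene on the same strand and are called by its symbol. For each locus, the effect in the double mutant (its mean minus the mean of its own controls) was reduced by the effect in the G9a mutant (its mean minus the mean of its own controls). This value is called the difference of effects, on the log2 scale, and is positive where RNA was higher relative to controls after loss of both genes than after loss of G9a alone. The direct difference, double mutant minus G9a mutant with no controls, is given beside it for the called genes that are described.

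The oocytes were at the germinal-vesicle stage, fully grown and arrested before meiotic maturation. They were dissected by hand from mice of 22 to 25 days, with 100 to 200 oocytes per sample. The 4 groups were 3 control libraries with the title prefix GKAO, 3 G9a cKO libraries set against them, 3 control libraries with the prefix GKAQ and 2 G9a-Glp cDKO libraries set against those. G9a cKO is a conditional deletion of G9a and cDKO a conditional deletion of G9a and Glp. The labels name neither the Cre driver nor the deleted exons, and a mutant of Glp alone is not analysed here. They do not say whether replicates came from separate animals, so the spread between these samples may be technical. The p-values rest on that spread, for most loci as taken over loci of like level. In the direct difference the title prefix and the genotype cannot be told apart.

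G9A (gene Ehmt2) and GLP (gene Ehmt1) are SET-domain enzymes that work as a heterodimer and place mono- and dimethylation on lysine 9 of histone H3. The dimethylated form, H3K9me2, is a mark of silent chromatin, and both proteins can also bind methylated lysine 9 through their ankyrin repeats. Transcription stops as the oocyte reaches full size, so that the RNA of a fully grown oocyte is largely a store made during growth. The comparison asks whether losing Glp as well changes this RNA beyond loss of G9a.

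Library totals were 1458868 to 2399680 reads. Over the loci included, log2 RPM correlated at a Pearson r of 0.968 to 0.981 between libraries of the same group (10 pairs) and of 0.917 to 0.961 between libraries of different groups (45 pairs). Oocyte markers (9 matched genes, among them Zp3, Gdf9 and Ddx4) summed to 10685 to 10955 RPM in the GKAO controls, 11152 to 11695 in G9a cKO, 9143 to 9587 in the GKAQ controls and 9301 to 9536 in cDKO. Granulosa and cumulus markers (20 matched) summed to 392 to 438, 326 to 363, 326 to 360.5 and 365 to 421 RPM in the same order. Of the 3 of these that were included, Serpine2, a secreted protease inhibitor, was called higher in the difference of effects (0.65, adjusted p = 0.00997; direct difference 0.43), a call lost without cDKO replicate 1 (adjusted p = 0.0905). Theca and stroma markers (8 matched, 4 with no read in any library) summed to at most 5.00 RPM. Blood, immune and endothelial markers (9 matched, 3 with no read) summed to 151 to 180.2, 146 to 165, 106 to 140.4 and 135 to 138 RPM in the same order. The part of these levels in the results was not tested. In pools of cells, fewer cells of a type and less RNA per cell cannot be told apart.

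Ehmt1, deleted in the double mutant alone (chr2:24790769-24919653), checked the labels. Its RNA stood at 80.2, 54.5 and 67.98 RPM in the GKAO controls, 69.3, 75.9 and 66.9 in G9a cKO, 90.5, 68.3 and 85.3 in the GKAQ controls and 17.7 and 21.3 in cDKO. Both cDKO libraries lay below all 9 others. The difference of effects was -2.14 ± 0.27 (SE, adjusted p = 1.98e-11) and the direct difference -1.86 (adjusted p = 1.73e-17), and the call was kept in all 19 alternative analyses. Ehmt2 was below the level for inclusion, with a mean log2 of 2.16, and stood at 8.23, 6.81 and 5.27 RPM in the GKAO controls, 2.09, 6.01 and 0.942 in G9a cKO, 5.03, 12.5 and 7.89 in the GKAQ controls and 2.85 and 2.96 in cDKO. G9a cKO replicate 2 fell among the controls and the other mutant libraries were lower than every control. The difference of effects was 0.10 ± 0.77 (SE, adjusted p = 0.94), with an effect in cDKO of -1.45 (adjusted p = 0.121) and one in the G9a mutant of -1.55 (adjusted p = 0.0971).

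Ehmt1 was the single call among 12 H3K9 methyltransferases and partners that were included, with a list median of -0.092. Wiz, a zinc finger partner of the G9A-GLP complex, had a difference of -0.22 ± 0.30 (SE, adjusted p = 0.63). Cdyl, a chromodomain protein that reads the mark, had -0.62 ± 0.24 (SE, adjusted p = 0.169). None of the 8 H3K9 demethylases and readers was called. Kdm3a, an H3K9 demethylase, had a difference of 1.31 ± 0.45 (SE, adjusted p = 0.161), with cDKO at 35.9 and 33.8 RPM and every other library between 8.90 and 17.1 RPM. Wiz, Cdyl and Kdm3a were chosen after their values were seen.

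Of the 9509 loci, 295 differed between the effects of the mutants at an adjusted p under 0.05 (limma, Benjamini-Hochberg over all 38540 loci), that is 3.1% of the loci included and 1.08% of all loci. Of these, 152 were higher (1.6%) and 143 lower (1.5%). Higher loci had a median difference of 1.09 at a median level of 5.81 log2 RPM, and 81 of them differed by at least 1. Lower loci had a median of -0.59 at a median level of 8.42, and 24 of them differed by at least 1. The median over all loci included was 0.030. An unadjusted p under 0.05 was reached by 1683 loci.

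The count depended on how the error of each locus was set. In the fit over all loci the error followed the level of the locus, since 9102 of the 9509 loci were given infinite prior degrees of freedom, so that their own spread between replicates hardly entered. The SE given with each difference is the one used in the fit. The own spread of a locus gave a larger SE than that for 175 of the 295 called loci, at least 1.5 times larger for 53. With its own spread alone, on 7 residual degrees of freedom, 274 of the 295 had an unadjusted p under 0.05, beside 15.8% of all loci included. The 295 were chosen on the same difference in the same libraries, which favours a high share, so this count is a description. On log2(RPM + 1), 21 loci were called, and without the trend and the robust step 9, and the cause of these falls was not tested. Of the 65 called loci named below, 58 lost the call on log2(RPM + 1) and 59 without the trend and the robust step. Without GKAQ control replicate 1 there were 898 calls in the fit over all loci, where 14705 of all 38540 loci were called in place of 417 although fewer of the loci included had an unadjusted p under 0.05 (1460), and 185 in a fit over the loci included alone. The cDKO libraries had medians of 5.47 log2 RPM and the others 5.35 to 5.41. With each library set to the same median, 103 were higher and 252 lower, so that 29.01% of calls were higher in place of 51.5%.

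Some libraries share the number in the sample title, whose meaning is not given in the sources used here. Of the libraries with the prefix GKAQ, cDKO replicate 2 and GKAQ control replicate 2 alone share a number. With the number as a replicate block, the cDKO effect therefore rests on these libraries alone. The calls and lost calls under the block are thus not a like comparison with the main fit. With that number as a replicate block 138 loci were called, 110 of them among the 295. Of the 65 called loci chosen by rule for naming, 33 lost the call under the block (adjusted p = 0.057 to 0.531). These were 3 unannotated loci and Krt76, Fmo5, Hmgn3, Gpc3, Cldn15, Tceal8, Rps16, Ndufb4, Rps27a, Zfp296, Serpine2, Rpl37, Oosp1, Bcl2l10, Meis2, Zbed3, Gdf9, Npm2, Dicer1, Hsp90b1, Hspa4, Ybx2, Hsph1, Ybx1, Smarca4, Cbfa2t2, Ttc34, Snrpn, 1700021F05Rik and Zfp521.

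**Figure D1:**
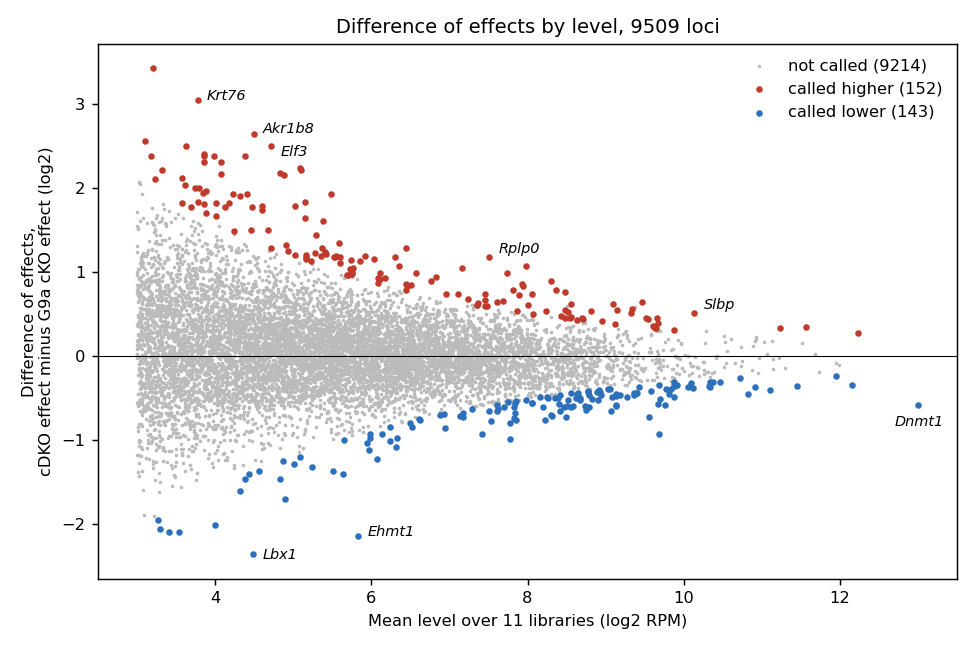
Difference of effects (log2, vertical axis) against mean level over the 11 libraries (log2 RPM, horizontal axis) for the 9509 loci, each a point, with the 152 called higher in red and the 143 called lower in blue. Many red points lie at low levels with differences above 1, and most blue points lie at high levels between 0 and -1.

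Calls were unevenly spread over levels. Between log2 levels of 3 and 4, 22 of 1988 loci were called higher and 5 lower, and between 4 and 6 the counts were 56 and 19 of 3970. Between 6 and 8 they were 37 and 34 of 2694. From 8 upwards they were 37 and 85 of 857, or 14.2% of these abundant loci. Inclusion used the mean over all libraries, so that a locus near the limit can pass through the group where it is high. Of the loci called higher, 4 were below 3 over the 9 libraries other than cDKO, among them Gm15389, Fmo5 and an unannotated locus, and of those called lower none was. With inclusion and classes set by those 9 libraries, chosen after seeing the data, 148 were called higher and 145 lower, 24 and 6 of 1983 between 3 and 4. The median SE was 0.52 in the lowest class and 0.12 in the highest, so smaller differences could be called at high levels. Just inside the level for inclusion Dppa1 had a difference of 0.18 and Flot1 one of 1.31, and just outside it Bard1 had 0.45.

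The promoters of 6 genes with large differences are shown, 3 higher and 3 lower, to show how poor or rich in CG their starts were. They are the 3 in each direction with the largest difference among the genes whose start was taken, and Lbx1, Zfp521, Armc4, 4921506M07Rik and 1700021F05Rik, with larger negative differences than Snrpn, are not shown. Each is the 250 bases before the transcription start nearest to the locus start in RefSeq (GRCm38.p6), with the CG dinucleotides, where mammalian DNA methylation is placed, in capitals. That start lay inside the oocyte locus by 215 bases for Fmo5, 206 for Tuba3b, 44 for Ehmt1 and Snrpn and 27 for Akr1b8. That many bases of these stretches therefore lie within the locus itself, most of the stretch for Fmo5 and Tuba3b.
Krt76, chr15:101892921-101893170, minus strand: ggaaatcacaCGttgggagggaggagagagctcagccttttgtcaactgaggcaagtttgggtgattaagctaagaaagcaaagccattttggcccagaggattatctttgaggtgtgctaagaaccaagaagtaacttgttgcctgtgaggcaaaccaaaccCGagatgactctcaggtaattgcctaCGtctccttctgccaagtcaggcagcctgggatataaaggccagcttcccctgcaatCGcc
Akr1b8, chr6:34353896-34354145, plus strand: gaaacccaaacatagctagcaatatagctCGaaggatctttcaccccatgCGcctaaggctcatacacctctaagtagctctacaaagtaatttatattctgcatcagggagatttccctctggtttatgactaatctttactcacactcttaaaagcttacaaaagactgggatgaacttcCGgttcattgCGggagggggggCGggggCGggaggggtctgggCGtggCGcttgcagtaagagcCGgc
Fmo5, chr3:97628769-97629018, plus strand: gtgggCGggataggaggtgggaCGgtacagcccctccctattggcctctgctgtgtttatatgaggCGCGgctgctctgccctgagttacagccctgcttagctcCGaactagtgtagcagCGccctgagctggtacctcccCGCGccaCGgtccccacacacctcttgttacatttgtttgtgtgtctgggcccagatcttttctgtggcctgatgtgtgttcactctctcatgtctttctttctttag
Ehmt1, chr2:24919610-24919859, minus strand: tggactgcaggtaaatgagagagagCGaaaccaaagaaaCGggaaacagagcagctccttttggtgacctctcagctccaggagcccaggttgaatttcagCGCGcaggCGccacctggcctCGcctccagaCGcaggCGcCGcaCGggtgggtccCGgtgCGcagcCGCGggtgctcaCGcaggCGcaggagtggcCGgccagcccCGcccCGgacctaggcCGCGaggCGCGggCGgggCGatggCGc
Snrpn, chr7:60140226-60140475, minus strand: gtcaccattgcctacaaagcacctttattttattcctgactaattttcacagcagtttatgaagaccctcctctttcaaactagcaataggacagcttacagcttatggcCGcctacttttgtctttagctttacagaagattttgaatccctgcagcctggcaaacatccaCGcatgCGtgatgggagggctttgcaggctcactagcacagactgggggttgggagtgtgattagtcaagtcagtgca
Tuba3b, chr6:145615713-145615962, plus strand: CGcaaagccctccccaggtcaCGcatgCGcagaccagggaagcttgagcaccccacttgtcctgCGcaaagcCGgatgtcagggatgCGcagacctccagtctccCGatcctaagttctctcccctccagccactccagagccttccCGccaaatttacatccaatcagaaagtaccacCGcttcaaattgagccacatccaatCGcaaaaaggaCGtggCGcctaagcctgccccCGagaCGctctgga

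These stretches held 4 (Krt76), 9 (Akr1b8), 9 (Fmo5), 26 (Ehmt1), 3 (Snrpn) and 14 (Tuba3b) CG dinucleotides, which read the same on both strands. In the full RefSeq window, which adds 50 bases after the start, the 71 genes called higher that had a start within 2000 bases held a median of 19. The 80 called lower held 26.5 and all 4393 included held 23. At least 10 were present in 74.6% of those called higher, 91.2% of those called lower and 88.8% of all, beside 43.5% of the 32851 starts in the RefSeq table. These shares describe the letters in this window, with no test.

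Several genes with large positive differences were raised in cDKO and at or below control in G9a cKO. Akr1b8, an aldo-keto reductase of the aldose reductase family (chr6:34354119-34368463), stood at 18.5, 18.3 and 19.3 RPM in the GKAO controls, 9.18, 13.7 and 11.3 in G9a cKO, 23.9, 20.8 and 23.2 in the GKAQ controls and 86.5 and 82.4 in cDKO. The G9a cKO libraries were the lowest and the cDKO libraries the highest, with no overlap between either mutant and its controls. Its difference of effects was 2.64 ± 0.39 (SE, adjusted p = 5.98e-08), the direct difference 2.91 (adjusted p = 4.7e-20), and the call was kept in all 19 alternatives. A locus on the other strand overlaps it, and whether the counting used strand is not given in the sources used here.

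Krt76, a type II keratin of oral epithelium (chr15:101884351-101892920), stood at 13.02, 12.04 and 14.6 RPM in the GKAO controls, 10.9, 9.83 and 7.53 in G9a cKO, 5.66, 13.3 and 8.87 in the GKAQ controls and 56.4 and 46.2 in cDKO. The cDKO libraries stood above the 9 others. The difference of effects was 3.05 ± 0.48 (SE, adjusted p = 6.47e-07) and the direct difference 2.46 (adjusted p = 2.95e-09).

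Fxyd6, a small membrane protein of the family that modulates the sodium pump (chr9:45370048-45396159), stood at 9.60, 9.43 and 12.9 RPM in the GKAO controls, 12.5, 10.9 and 8.00 in G9a cKO, 10.7, 11.7 and 12.3 in the GKAQ controls and 54.7 and 57.5 in cDKO. The control groups and G9a cKO overlapped, and cDKO was higher than all of them. The difference was 2.31 ± 0.47 (SE, adjusted p = 0.000448), the direct difference 2.44 (adjusted p = 1.25e-09), and the call was kept in all 19 alternatives. An unannotated locus (chr12:96110251-96114218) was at 54.1 and 69.4 RPM in cDKO and between 3.77 and 9.60 in the other 9 libraries. Its mean log2 was 2.59 over those 9, so that it was included through cDKO alone, and its difference of 3.43 (direct difference 3.45) is a description. The gene model Gm16090 was at 54.1 and 67.6 RPM in cDKO and between 9.43 and 23.3 elsewhere, with a difference of 2.39 ± 0.40 (SE, adjusted p = 4.85e-06) that was lost on log2(RPM + 1) (adjusted p = 0.0562) and a direct difference of 1.83 (adjusted p = 2.63e-07).

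Other genes were raised in both mutants and more in cDKO. Gpc3, an X-linked glypican of the cell surface (chrX:52272426-52613921), stood at 13.02, 7.33 and 9.96 RPM in the GKAO controls, 28.4, 25.1 and 25.4 in G9a cKO, 4.40, 8.33 and 2.46 in the GKAQ controls and 60.4 and 66.99 in cDKO. Each mutant lay above its own controls and cDKO above G9a cKO. The cDKO effect was 3.82 (adjusted p = 3.22e-24) and the G9a cKO effect 1.42 (adjusted p = 0.00116), a difference of 2.41 ± 0.47 (SE, adjusted p = 0.000204), while the direct difference was 1.28 (adjusted p = 0.0092). Hmgn3, a nucleosome-binding protein, had effects of 3.85 and 1.35 and a difference of 2.51 ± 0.51 (SE, adjusted p = 0.000424), with a direct difference of 1.49 (adjusted p = 0.00361). With the spread of the replicates of Hmgn3 alone, the SE of the difference of effects was 1.14. Its call was lost in the fit over the loci included alone (adjusted p = 0.196) and without cDKO replicate 1 (adjusted p = 0.0698). Gm15389 had effects of 3.72 and 1.34 and a direct difference of 1.37. It was included through the mutants, and its difference of 2.38 was lost without cDKO replicate 2 (adjusted p = 0.118).

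Further genes reached a large difference with lower RNA in G9a cKO. Elf3, an epithelial ETS transcription factor (chr1:135253474-135259242), stood at 28.8, 41.9 and 32.2 RPM in the GKAO controls, 13.4, 7.10 and 8.48 in G9a cKO, 35.2, 32.9 and 37.95 in the GKAQ controls and 44.4 and 68.2 in cDKO. G9a cKO was the low group, and cDKO was above its controls. The G9a cKO effect was -1.87 (adjusted p = 4.97e-11) and the cDKO effect 0.64 (adjusted p = 0.17). Its difference of effects was 2.51 ± 0.37 (SE, adjusted p = 4.65e-08) and the direct difference 2.56 (adjusted p = 1.29e-17).

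Cldn15, a claudin of tight junctions (chr5:136966616-136975986), stood at 19.9, 19.4 and 20.5 RPM in the GKAO controls, 15.4, 6.56 and 5.65 in G9a cKO, 11.9, 20.003 and 14.3 in the GKAQ controls and 38.7 and 27.9 in cDKO. G9a cKO was below all GKAO controls and cDKO above all GKAQ controls. The G9a cKO effect was -1.26 (adjusted p = 0.00395) and the cDKO effect 1.13 (adjusted p = 0.0194), the difference 2.39 ± 0.45 (SE, adjusted p = 9.98e-05) and the direct difference 1.98 (adjusted p = 8.17e-07).

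**Figure D2:**
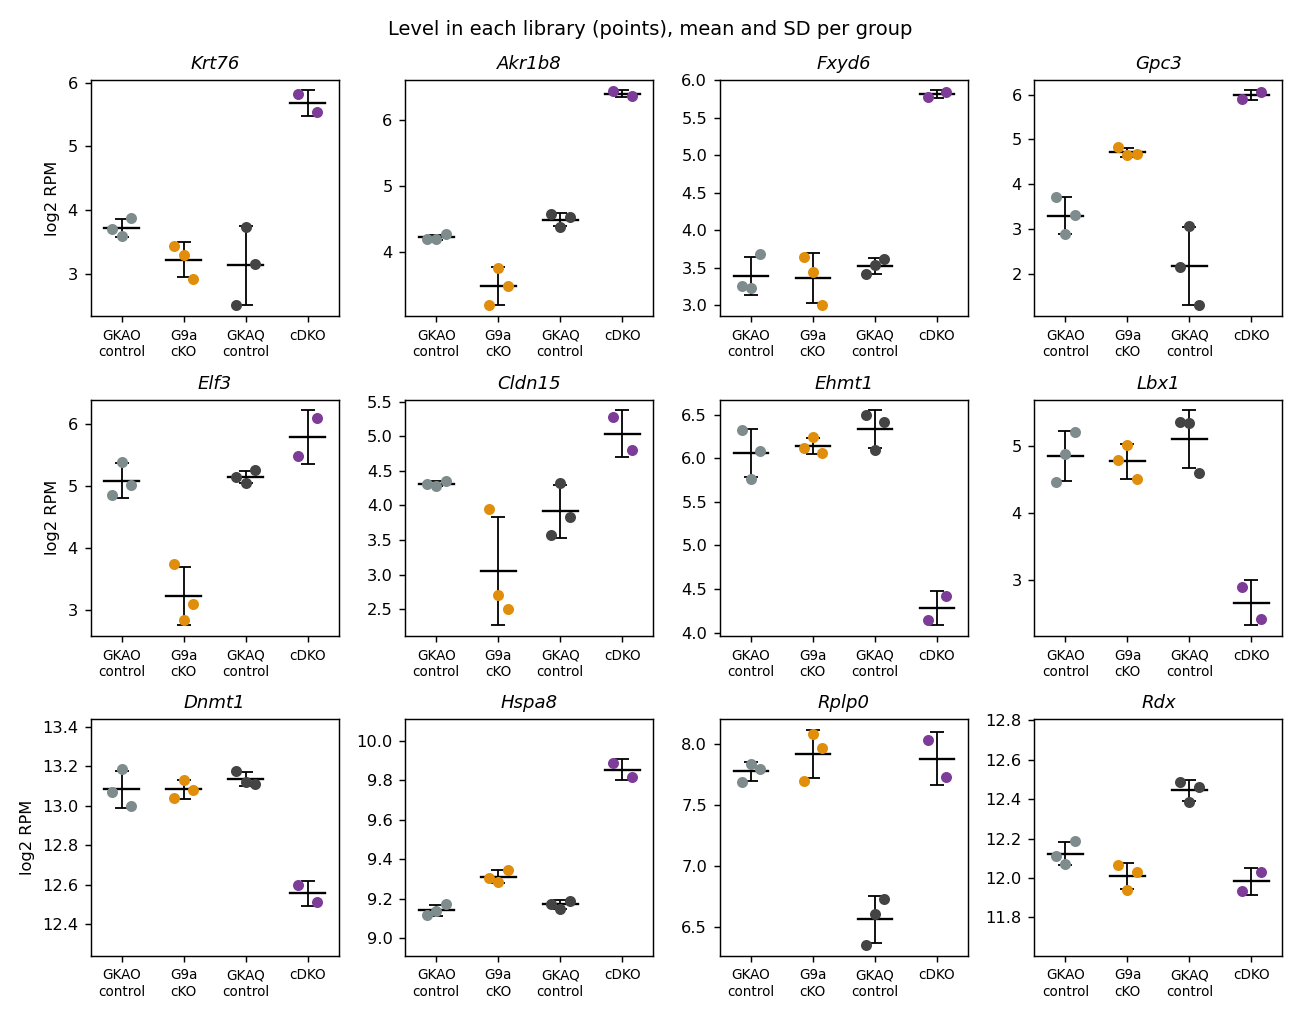
Level in each library (points, log2 RPM, vertical axis) of 12 genes in the 4 groups (horizontal axis), with the mean and SD. The 2 cDKO libraries stand apart from all others for Krt76, Akr1b8, Fxyd6, Gpc3, Ehmt1, Lbx1, Dnmt1 and Hspa8, while for Rplp0 and Rdx the 3 GKAQ controls stand apart.

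Fmo5, a flavin-containing monooxygenase (chr3:97628804-97655282), was at 25.6 and 14.2 RPM in cDKO and between 3.30 and 14.7 RPM in the other libraries. The groups overlapped. Its mean log2 was 2.84 over the 9 libraries other than cDKO, so that it was included only with cDKO. Its difference of 2.56 ± 0.59 (SE) and its direct difference of 1.95 are a description, and the call was lost without cDKO replicate 1. Tceal8, an X-linked gene of the transcription elongation factor A family, had a direct difference of 2.09 and a difference of effects of 2.38 ± 0.47 (SE, adjusted p = 0.000271), lost in the fit over the loci included alone (adjusted p = 0.0719). Gm11775 and an unannotated locus overlap on opposite strands with nearly the same values in every library (differences of 2.22 and 2.23, direct differences of 1.67 and 1.68), so their reads cannot be told apart. Of the 282 included loci on the X chromosome, 9 were called higher (3.19%) and 2 lower (0.709%), beside 1.6% and 1.5% of all loci included. Chromosome 3 came next, with 2.77% called higher, and no chromosome was tested.

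Among genes with a symbol, Lbx1 and Ehmt1 had the largest negative differences. Lbx1, a homeobox transcription factor (chr19:45232688-45236836), stood at 21.9, 29.3 and 36.9 RPM in the GKAO controls, 27.6, 32.2 and 22.6 in G9a cKO, 40.9, 40.4 and 24.2 in the GKAQ controls and 7.40 and 5.34 in cDKO. Both cDKO libraries were below the 9 others. Lbx1 had a difference of effects of -2.36 ± 0.39 (SE, adjusted p = 2.62e-06) and a direct difference of -2.11 (adjusted p = 2.1e-10). Lbx1 overlaps a locus on the other strand.

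Itgb3, the integrin beta 3 subunit (chr11:104607579-104674277), stood at 52.1, 41.4 and 48.1 RPM in the GKAO controls, 48.8, 30.6 and 34.8 in G9a cKO, 87.4, 81.7 and 72.9 in the GKAQ controls and 26.8 and 23.1 in cDKO. Its GKAQ controls were the highest group and cDKO the lowest. The difference was -1.36 ± 0.29 (SE, adjusted p = 0.00124), the direct difference -0.59 (adjusted p = 0.0949) and the difference of the controls 0.78 (adjusted p = 0.00359). The gene 4921506M07Rik was at 16.5 and 7.71 RPM in cDKO and between 32.8 and 45.8 elsewhere, with a direct difference of -1.60 and a difference of effects of -1.70 ± 0.35 (SE, adjusted p = 0.000469) that was lost without cDKO replicate 2 (adjusted p = 0.0848).

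The remaining genes with large negative differences each lost the call in a fit that leaves out 1 library. Lbx1 and Itgb3 kept it in all 11 such fits, but lost it on log2(RPM + 1) and without the trend and the robust step. Itgb3 also lost it with the control groups pooled. Snrpn, an imprinted gene expressed from the paternal allele in the embryo, was at 9.11 and 7.71 RPM in cDKO against 20.7, 19.2 and 17.7 in its controls, and at 27.97, 36.1 and 38.1 RPM in G9a cKO against 34.96, 28.3 and 25.2 in its controls. Both cDKO libraries were the lowest of the 11. Its difference was -1.40 ± 0.40 (SE, adjusted p = 0.0456) and its direct difference -2.01 (adjusted p = 4.29e-09), and the call was lost in 7 of the 11 fits that leave out 1 library (adjusted p up to 0.144). The zinc finger gene Zfp521 (-2.09), the cilia gene Armc4 (-2.06), the alpha-tubulin gene Tuba3b (-1.37), 1700021F05Rik (-1.47), Ttc34 (-1.29) and the corepressor gene Cbfa2t2 (-1.25) each lost the call in 4 to 10 of those fits. Their direct differences were, in that order, -1.86, -0.76, -1.48, -1.35, -0.78 and -0.56, and those of Armc4 (adjusted p = 0.344) and Cbfa2t2 (adjusted p = 0.25) were not called. The Rab GTPase-activating gene Tbc1d13 (-1.32, direct difference -1.05) lost it without GKAQ control replicate 3 (adjusted p = 0.0738) and without cDKO replicate 2 (adjusted p = 0.071).

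Among abundant RNAs, Dnmt1, the maintenance DNA methyltransferase (chr9:20907206-20960182), had the smallest adjusted p. It stood at 8587, 9311 and 8187 RPM in the GKAO controls, 8405, 8984 and 8674 in G9a cKO, 9243, 8900.4 and 8857 in the GKAQ controls and 6202 and 5836 in cDKO. The controls and G9a cKO overlapped and cDKO was lower than all of them. The difference of effects was -0.58 ± 0.038 (SE, adjusted p = 6.14e-47), and with the spread of its own replicates the SE was 0.078. The direct difference was -0.53 (adjusted p = 2.52e-71). Of the 19 alternatives, only the fit without the trend and the robust step ended the call (adjusted p = 0.232).

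Of 11 genes of DNA methylation that were included, Dnmt1 and Tet3 were called lower and none higher, with a median of -0.051. Both had mean log2 levels of at least 8, where 85 of 857 loci were called lower, beside 1.5% of all loci included. Tet3, an oxidase of 5-methylcytosine that is prominent in the oocyte, stood at 339, 298 and 283 RPM in the GKAO controls, 407, 414 and 283 in G9a cKO, 219, 211 and 232 in the GKAQ controls and 217 and 144 in cDKO. Its difference was -0.56 ± 0.15 (SE, adjusted p = 0.0169) beside a direct difference of -1.04 (adjusted p = 2.45e-18), and the difference of the controls was -0.47 (adjusted p = 9.92e-05). Its call was lost in 6 of the 11 leave-one-out fits (adjusted p up to 0.358). Dnmt3a, a de novo methyltransferase, had a difference of -0.38 ± 0.12 (SE, adjusted p = 0.123), and Uhrf1, which brings DNMT1 to replicated DNA, one of -0.13 ± 0.10 (SE, adjusted p = 0.352). Dnmt3a and Uhrf1 were chosen after their values were seen.

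Chaperone RNAs were called in both directions. Hspa8, the constitutive HSP70 (chr9:40800784-40806184), stood at 555, 562 and 577 RPM in the GKAO controls, 633, 623 and 651 in G9a cKO, 578, 567 and 584 in the GKAQ controls and 949 and 901 in cDKO. Both mutants lay above their controls, and cDKO was highest. The difference was 0.51 ± 0.10 (SE, adjusted p = 0.000321) and the direct difference 0.54 (adjusted p = 5.69e-10). Hsph1, an HSP110 chaperone, stood at 571, 490.2 and 553 RPM in the GKAO controls, 687, 757 and 737 in G9a cKO, 489.6, 525 and 608 in the GKAQ controls and 535 and 524 in cDKO. Its difference of -0.46 ± 0.11 (SE, adjusted p = 0.00405), with a direct difference of -0.46, was lost without GKAO control replicate 2 (adjusted p = 0.0515) and without GKAQ control replicate 3 (adjusted p = 0.124). With Hsp90b1 (-0.38, direct difference -0.22) and Hspa4 (-0.42, direct difference 0.097, lost in 6 of the 11 leave-one-out fits), 3 of 13 listed chaperones were called lower and 1 higher, with a median of -0.11. Of all loci included, 1.5% were called lower and 1.6% higher. The called chaperones had mean log2 levels of at least 8, where 85 of 857 loci were called lower and 37 higher. The part of level in these counts was not tested.

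Oocyte factors were also split. Zbed3, a member of the subcortical maternal complex, stood at 5825 and 5303 RPM in cDKO and between 4251 and 4952 RPM in all other libraries, a difference of 0.27 ± 0.047 (SE, adjusted p = 1.32e-05) and a direct difference of 0.33. Kit, the receptor for KIT ligand (chr5:75574466-75656741), was at 439 and 462 RPM in cDKO and between 488 and 611 elsewhere, a difference of -0.48 ± 0.11 (SE, adjusted p = 0.003) and a direct difference of -0.35. Gdf9, a growth factor secreted by the oocyte, was at 3559 and 3882 RPM in cDKO, 4388, 4432 and 4562 in the GKAQ controls and between 3595 and 3874 in the GKAO controls and G9a cKO. Its difference of -0.24 ± 0.051 (SE, adjusted p = 0.000753) stood beside a direct difference of -0.018, and was lost without cDKO replicate 1 (adjusted p = 0.0609). Fip1l1, a factor of mRNA 3' end formation, was at 2390.3 and 2193 RPM in cDKO and between 2696 and 3146 elsewhere, a difference of -0.35 ± 0.058 (SE, adjusted p = 1.99e-06) and a direct difference of -0.33.

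Of 19 oocyte transcription factors and secreted factors, Oosp1 was called higher and Kit, Gdf9 and Foxo3 lower. Of 15 maternal-effect genes, Zbed3 was called higher and Smarca4 (a chromatin remodelling ATPase), Npm2 (a histone chaperone of the oocyte) and Dicer1 (the small RNA processing enzyme) lower. Of 27 genes of maternal mRNA storage and decay, 3 were called lower, the cold-shock proteins Ybx1 and Ybx2 and the RNA-binding gene Igf2bp2. The medians of these lists were 0.085, -0.0094 and -0.041. Of all loci included, 1.6% were called higher and 1.5% lower. The called genes of these lists had mean log2 levels of at least 8, where 37 of 857 loci were called higher and 85 lower. The part of level in these counts was not tested. Foxo3, Smarca4, Npm2, Dicer1, Ybx1, Ybx2 and Igf2bp2 each lost the call in 4 to 7 of the 11 leave-one-out fits. Dicer1 had a difference of -0.37 (adjusted p = 0.0311) but a direct difference of -0.0036 (adjusted p = 0.976), and its GKAQ controls stood 0.36 above the GKAO controls (adjusted p = 6.83e-06). Ybx1 likewise had -0.48 (adjusted p = 0.0472), a direct difference of -0.067 (adjusted p = 0.65) and a difference of the controls of 0.41 (adjusted p = 0.00045). The direct differences of Foxo3, Smarca4, Npm2, Ybx2 and Igf2bp2 were -0.39, -0.37, -0.24, -0.22 (not called, adjusted p = 0.118) and -0.66. Of 20 genes of meiotic arrest and resumption, the checkpoint kinase gene Bub1b was called lower, -0.37 ± 0.067 (SE, adjusted p = 3.83e-05), direct difference -0.21, with cDKO at 1691 and 1547 RPM and the other libraries between 1733 and 2225. None of the 21 genes of meiotic prophase was called.

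Chromatin and transcription factor genes outside the H3K9 pathway gave few calls. Of 21 Polycomb genes, Jarid2, an accessory subunit of PRC2, was called lower, -0.74 ± 0.15 (SE, adjusted p = 0.000753), with a direct difference of -0.84. It stood at 228, 198 and 226 RPM in the GKAO controls, 251, 359 and 347 in G9a cKO, 192, 205 and 208 in the GKAQ controls and 189.6 and 163 in cDKO. G9a cKO was above all other groups, with an effect of 0.54 (adjusted p = 5.74e-05), and the effect in cDKO was -0.20 (adjusted p = 0.445). None of 12 genes of H3K4 methylation was called. Kmt2a, an H3K4 methyltransferase that was below the level for inclusion and chosen after its values were seen, was at 19.4 and 16.01 RPM in cDKO and at most 1.17 RPM in the other libraries (adjusted p = 0.000318). Of 182 zinc finger genes, Zfp296 was called higher (0.73, beside a direct difference of -0.020 (adjusted p = 0.907)) and Zfp521 lower, with a median of -0.062.

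Genes of the 2-cell embryo had high values without a call. Of 4 included, none was called, and the median was 0.81. Zscan4d, a marker of that stage, stood at 3.43, 3.14 and 2.34 RPM in the GKAO controls, 14.2, 33.3 and 19.3 in G9a cKO, 1.89, 1.25 and 4.93 in the GKAQ controls and 72.9 and 61.1 in cDKO. Each mutant was above its controls and cDKO above G9a cKO. Zscan4d had a difference of effects of 2.05 ± 0.60 (SE), not called, and a direct difference of 1.67. With its controls at 1.25 to 4.93 RPM, it reached the level for inclusion through the mutants. Its values, which also enter the list median, are a description. Zscan4 genes are near-identical copies, and how the counting split their reads is not given in the sources used here. Of the 18 listed genes with a locus, 4 that lay below the level for inclusion were called higher, beside 1.08% of all 38540 loci called in either direction. These were AF067063, B020004J07Rik, and Usp17l5 and Usp17lc, which share a locus and so are a single result. These genes and Zscan4d were chosen after their values were seen.

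Snrpn was the single call among 12 imprinted genes, and Kit the single call among 18 genes of receptor tyrosine kinase and ERK signalling. No call was made among 27 genes of cell adhesion and synapses, 13 of DNA damage and apoptosis, 3 of metal handling, 27 of the proteasome and 3 markers of blood, immune and endothelial cells, with medians of 0.14, 0.068, -0.33, 0.16 and 0.55. No theca or stroma marker reached the level for inclusion. Of 70 ribosomal protein genes, 4 were called higher, none lower, and 53 had a positive difference, with a median of 0.28. The median direct difference of this list was 0.14 and its median difference of the controls -0.11. Of 63 genes of oxidative phosphorylation, Ndufb4 (1.61, direct difference 0.75) and Cox6c (0.94, direct difference 0.71) were called higher, none lower, and 44 were positive. The median was 0.23, beside a median direct difference of 0.13. Over all loci included, 1.6% were called higher and 1.5% lower, with a median of 0.030, and positive values were not counted. Cox6c, a subunit of cytochrome c oxidase, was at 203 and 167 RPM in cDKO and between 84.2 and 126 elsewhere, and its call was lost without cDKO replicate 1 (adjusted p = 0.0536).

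In Rplp0, a stalk protein of the large ribosomal subunit (chr5:115559467-115563727), the controls carried the value. It stood at 207, 229 and 223 RPM in the GKAO controls, 208, 272 and 251 in G9a cKO, 81.7, 97.5 and 106 in the GKAQ controls and 262 and 212 in cDKO. The GKAQ controls stood apart, below the other 3 groups, which overlapped. The difference of effects was 1.18 ± 0.17 (SE, adjusted p = 1.64e-08), the direct difference -0.036 (adjusted p = 0.856) and the difference of the controls -1.22 (adjusted p = 6.16e-24). Rpl37 was at 162 and 123 RPM in cDKO, 93.6 to 108 in the GKAQ controls and 408 to 609 in the GKAO controls and G9a cKO. Its difference was 0.61 (adjusted p = 0.00802) beside a direct difference of -1.75 (adjusted p = 1.48e-53), and was lost without GKAO control replicate 3 (adjusted p = 0.115), G9a cKO replicate 1 (adjusted p = 0.13) or cDKO replicate 1 (adjusted p = 0.239). Rps16 (1.97, direct difference 1.12) and Rps27a (1.19, direct difference 0.20, adjusted p = 0.515) lost the call in 2 and 3 of the 11 leave-one-out fits, each time with cDKO replicate 1 among the libraries that ended it (adjusted p = 0.188 and 0.177). Ribosomal protein genes have many near-identical copies in the genome, among which the counting could split reads.

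**Figure D3:**
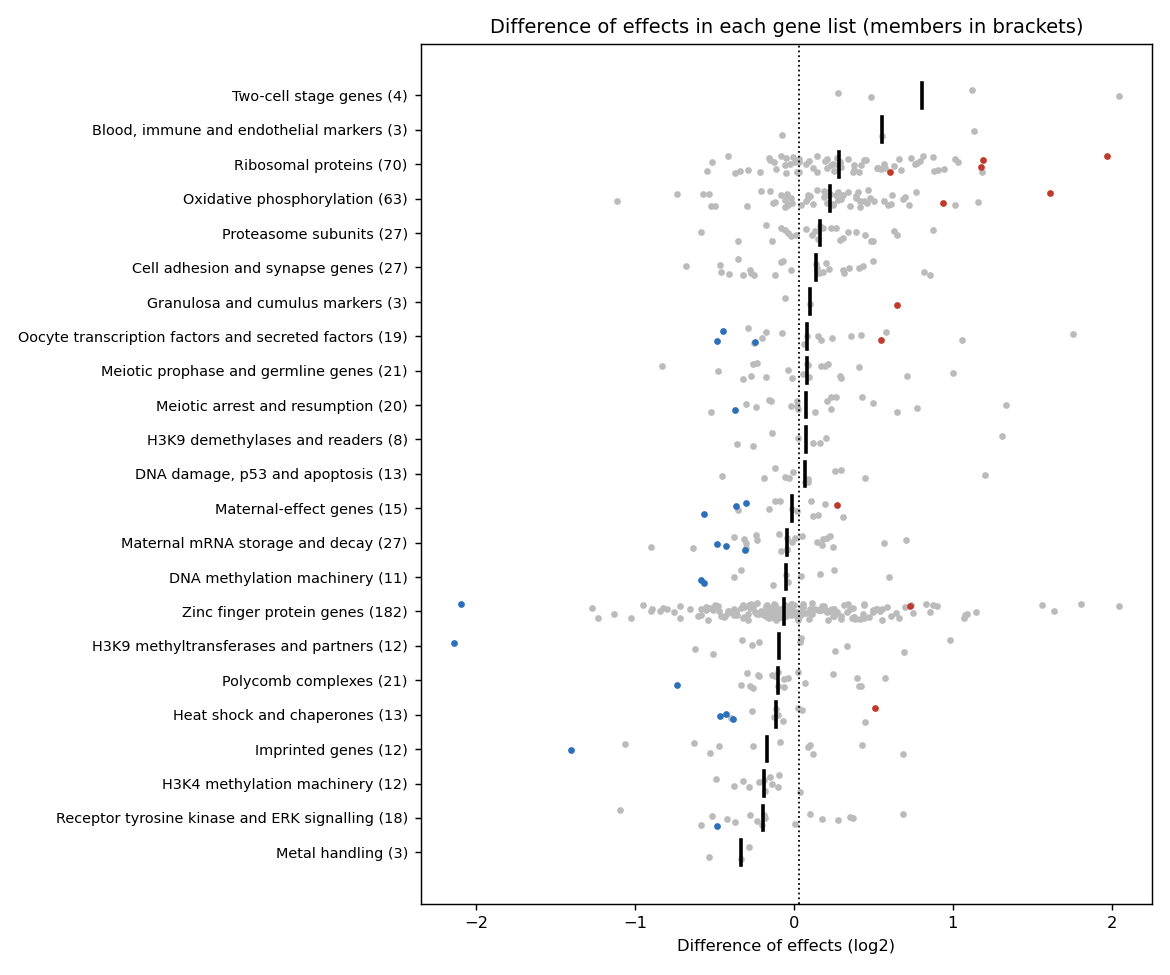
Difference of effects (log2, horizontal axis) of each included gene (points) in 23 gene lists, with the median of each list as a black bar and the median of all 9509 loci as a dotted line. Genes called higher are red, genes called lower are blue and genes without a call are grey. Ribosomal protein genes and genes of oxidative phosphorylation have medians of 0.28 and 0.23, and no list holds more than 4 called genes.

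By arithmetic the difference of effects equals the direct difference minus the difference of the controls (GKAQ minus GKAO), and both parts were examined. The control groups differed at 1350 of the 9509 loci (14.2%). The mutants differed directly at 1440 (15.1%), 800 higher in cDKO (8.41%) and 640 lower (6.73%). Of the 152 loci called higher in the difference of effects, 124 had a positive direct difference, 96 of these called, and 9 had a direct difference called in the opposite direction. Of the 143 called lower, 133 had a negative direct difference, 88 of these called, and none was called in the opposite direction. The difference of the controls was the larger part for 54 of the 152 and 52 of the 143. Over all 9509 loci included, the direct difference had the sign of the difference of effects at 6565 and the difference of the controls was the larger part at 4437.

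Abundant oocyte RNAs were among those whose value came from the controls. Slbp, the histone stem-loop binding protein, was at 783, 792 and 825 RPM in the GKAQ controls and between 1061 and 1374 RPM in all other libraries, a difference of 0.51 ± 0.083 (SE, adjusted p = 8.5e-07) beside a direct difference of -0.21 (adjusted p = 0.0155). Rdx, the actin-membrane linker radixin, was at 5749, 5343 and 5635 RPM in the GKAQ controls and between 3908 and 4669.8 elsewhere, a difference of -0.35 ± 0.048 (SE, adjusted p = 2.96e-09) beside a direct difference of -0.029 (adjusted p = 0.575). In both genes the GKAQ controls stood apart from all other libraries. Oosp1, an oocyte-secreted protein, had a difference of 0.55 (adjusted p = 0.000239) and a direct difference of -0.36 (adjusted p = 0.000571). Bcl2l10, an anti-apoptotic protein of the oocyte, had 0.45 (adjusted p = 0.0467, lost in 4 of the 11 leave-one-out fits) and -0.52 (adjusted p = 3.91e-05).

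**Figure D4:**
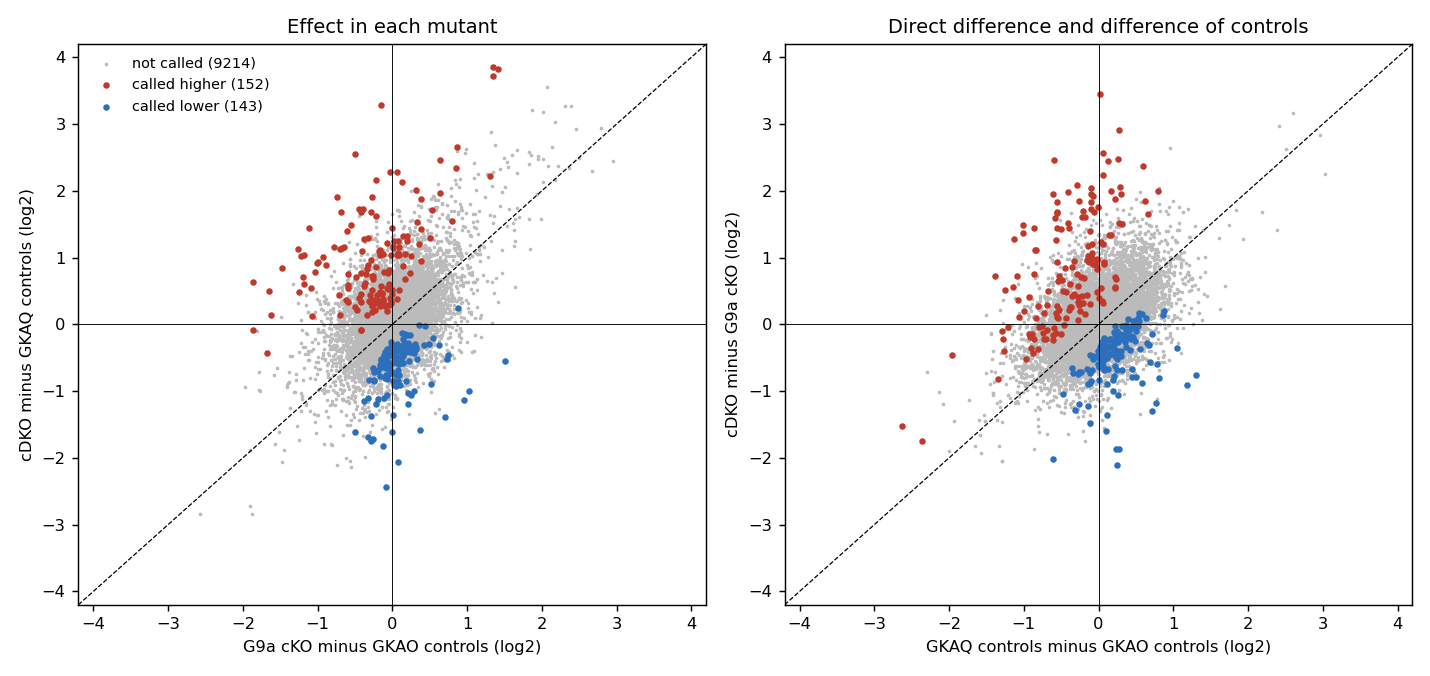
Left, effect in cDKO against effect in G9a cKO (log2). Right, direct difference of the mutants against the difference of the control groups (log2), for the 9509 loci with the 152 called higher in red and the 143 called lower in blue. On the dashed line the difference of effects is 0, and in the right panel 54 red and 52 blue loci have the larger part along the horizontal axis.

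The effects of the mutants rest on separate libraries. An effect in cDKO was called at 1428 loci (15%) and one in G9a cKO at 461 (4.85%). Loci called higher in the difference had a median effect of 0.78 in cDKO and -0.21 in G9a cKO, and 110 of the 152 were positive in cDKO and negative in G9a cKO. Loci called lower had medians of -0.53 and 0.050, and 84 of the 143 were negative in cDKO and positive in G9a cKO. Over all loci included these medians were 0.052 and 0.0076, and 1985 were positive in cDKO and negative in G9a cKO and 1637 the reverse. Opposite signs are favoured by choosing loci on the difference of the effects, so these counts are a description. Effects called in opposite directions in the mutants were found at 8 loci, 6 called higher and 2 lower.

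Ptpn6, the phosphatase SHP-1 (chr6:124720707-124738584), was one of these 8. It stood at 55.5, 54.99 and 53.3 RPM in the GKAO controls, 31.3, 31.7 and 20.7 in G9a cKO, 39.6, 41.7 and 42.4 in the GKAQ controls and 89.96 and 68.8 in cDKO. G9a cKO lay below all of its controls and cDKO above all of its own. The difference was 1.93 ± 0.30 (SE, adjusted p = 1.84e-07) and the direct difference 1.52. Polr3k, a subunit of RNA polymerase III, stood at 18.5, 22.5 and 31.6 RPM in the GKAO controls, 7.51, 15.8 and 13.7 in G9a cKO, 18.9, 24.6 and 23.2 in the GKAQ controls and 38.1 and 45.6 in cDKO, again with no overlap between a mutant and its controls, and had a difference of 1.93 ± 0.40 (SE, adjusted p = 0.000683) and a direct difference of 1.83. Ptpn6 and Polr3k were chosen after their values were seen.

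Loci called lower had a median length of 60.7 kb, beside 22.0 kb for loci called higher and 29.0 kb for all loci included. A locus on the other strand overlapped 40.1% of the loci called higher, 42.7% of those called lower and 47.4% of all. Besides Akr1b8, Lbx1 and Gm11775, such called loci include Gpc3, Tet3, Jarid2, Zbed3, Fip1l1, Slbp, Rdx, Bcl2l10, Hsp90b1, Hspa4, Tuba3b, Ttc34, 4921506M07Rik, Rpl37 and Rps27a. Among the called loci, 14 pairs lay within 100 kb, and such pairs were not counted over all loci included. Of the 14 pairs, 10 overlapped each other, and of the 4 that did not, 2 shared a direction. These were Nostrin with Spc25 and Fbxw14 with Fbxw28, named because of their position, and both pairs were higher.

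H3K9me2 itself, which played no role in choosing the loci, was compared over the 10 kb windows that overlap each locus, in 2 libraries per genotype. Windows were present for 9495 of the 9509 loci. Between cDKO and G9a cKO, 27 of these were called, 10 higher and 17 lower (0.284%). None was among the 151 loci called higher in the difference of effects or the 143 called lower (limma). There 29 and 40 had an unadjusted p under 0.05, beside 1856 of all. These sets were not chosen on the direct RNA difference, which matches this H3K9me2 contrast. Of the 152 called higher, 124 had a positive direct RNA difference and 9 had one called in the opposite direction. Of the 143 called lower, 133 had a negative one. The median log2 H3K9me2 difference was 0.13 for loci called higher, 0.19 for those called lower and 0.13 for all. Over the 4 pairings of 1 cDKO with 1 G9a cKO library these medians ranged from -0.030 to 0.13, 0.13 to 0.22 and 0.084 to 0.15. Without G9a cKO replicate 1 they were 0.014, 0.11 and 0.089. RPM shows where the mark lies and not how much of it there was.

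The mutant H3K9me2 libraries were shallow, with totals of 1109191 to 1881848 reads, against 7048784 and 19128881 in the controls. Akr1b8 had 12 and 10 H3K9me2 reads in G9a cKO and 16 and 11 in cDKO, a difference of -0.049 (limma, adjusted p = 0.951). Krt76 had 10 and 8 reads in G9a cKO and 19 and 13 in cDKO, a difference of 0.47 (adjusted p = 0.45). For both genes no difference was detectable at this depth. Gpc3, which spans 35 windows, was at 4.28 and 4.56 RPM per window in the controls. In the G9a mutant it was at 2.71 and 2.65 and in the double mutant at 2.93 and 3.17. Both mutants lay below control over this locus, by -0.72 (adjusted p = 0.000478) and -0.53 (adjusted p = 0.00533), and the difference between them was 0.19 (adjusted p = 0.304).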

How the data were processed

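RNA of oocyte pools was measured in 11 libraries and H3K9me2, by chromatin profiling, in 6. The authors deposited log2 values, 1 column per library, in both tables. From the values, these are log2 of reads per 1000000 (RPM), with a locus of 0 reads set to 0.9 read, since every RNA value gave whole reads within 0.02. The submitters' processing notes name Trim Galore, HISAT2 2.1.0, Bowtie2, Bismark 0.19.0 and GRCm38, and the counting method is not given in the sources used here. All 38540 loci and 11 libraries entered 1 limma fit, with group means and with trend and robust moderation (limma 3.58.1, R 4.3.3). Two-sided p-values were adjusted within each contrast by the Benjamini-Hochberg method, over every locus. RNA totals of 1458868 to 2399680 reads set the precision. H3K9me2 was tested likewise over the loci included, on log2 of summed 10 kb windows with 0.5 read added, and 4 further per-sample columns of that table were not used. The fit was tested on simulated data.

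Genes were named by rule: Ehmt1 and Ehmt2, of called genes the 12 largest differences and the 6 highest levels in each direction, up to 4 called genes per list by adjusted p, and of called loci without a symbol the 3 largest differences in each direction. Members and the 24 gene lists were chosen with earlier results of these data known, and no list was tested as a set. Alternatives changed the loci fitted, error model, zero value, scaling, baseline, block and libraries.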

Additional observations from a re-analysis of the deposited data

Results flagged for a closer look

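The effects of the mutants differed at 295 of the 9509 loci by the test of the difference itself. At 8 of these, chosen after their values were seen, the 2 effects were each called, in opposite directions. Higher in cDKO and lower in G9a cKO were Cldn15 (difference of effects 2.39), Ptpn6 (1.93), Polr3k (1.93), Depdc7 (0.62), and Gm11775 (2.22) with the unannotated locus TCONS_00021026 on its other strand (2.23), which share their values. Lower in cDKO and higher in G9a cKO were Cdv3 (-0.72) and Tnks1bp1 (-0.59). The direct difference of Cdv3 was 0.15, and its GKAQ controls stood 0.87 above its GKAO controls.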

How the results depend on the processing

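Against 295 loci (152 higher, 143 lower) called for the difference of effects, log2(RPM + 1) gave 21 loci (10 higher, 11 lower), no trend or robust step 9 loci (8 higher, 1 lower), the number in the sample title as a replicate block 138 loci (54 higher, 84 lower), centred libraries 355 loci (103 higher, 252 lower), and pooled controls, whose estimate equals the direct difference but whose error takes in the spread between the control groups, 818 loci (482 higher, 336 lower). A fit over the loci included gave 334, over loci with a read 279 and with precision weights 252, and inclusion at a mean log2 of 2 or 4 gave 341 or 268, and inclusion by the 9 libraries other than cDKO, chosen after seeing the data, 293. Leaving out 1 library gave 204 to 898 loci, 84 to 483 higher and 95 to 415 lower, each highest without GKAQ control replicate 1. In the fit over the loci included, an alternative chosen after seeing the data, the ranges were 185 to 431, 87 to 228 and 84 to 203, with 185 (101 higher, 84 lower) without GKAQ control replicate 1 and 88 lower without replicate 3. The direct difference was called at 1440 loci, 517 on log2(RPM + 1), 279 without trend, 681 to 1505 leaving out 1 library and 863 to 2079 in the fit over the loci included. The causes were not tested.

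With pooled controls the sign changed for Rplp0 (-0.036), Zfp296 (-0.020), Rpl37 (-1.75), Oosp1 (-0.36), Slbp (-0.21), Bcl2l10 (-0.52) and Hspa4 (0.097). Ehmt2, not called, changed sign on log2(RPM + 1) (-0.058), with the block (-0.58), and without GKAO control replicate 1 (-0.050), G9a cKO replicate 3 (-0.53) or GKAQ control replicate 1 (-0.23), with values from -0.53 to 0.80 over the fits that leave out 1 library. Of 65 named loci that were called, 3 kept the call in all 19 alternatives and 30 in all 11 that leave out 1 library. H3K9me2 medians in the window of the locus start were 0.24 for loci called higher in the difference of effects and 0.16 for all. Leaving out 1 library gave 0.014 to 0.13 (called higher), 0.11 to 0.22 (called lower) and 0.089 to 0.15 (all). The 2 planned count-based tests were not run, since the tables hold log2 values, and the recovered reads were used in the fit with precision weights. Deviations from the group mean correlated at r = 0.00519 to 0.0951 over the 5 pairs of a mutant and a control with the same title number. Over the 10 other pairs r was -0.102 to 0.00468, so all 5 lay above the 10. Deviations within such small groups are bound to each other, so these values cannot decide whether the number pairs the libraries. The main fit leaves the number out. Under the block the cDKO effect rests on cDKO replicate 2 and GKAQ control replicate 2 alone. With 2 cDKO libraries, and few reads at low levels and in the H3K9me2 mutants, small differences could not be detected.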
